A study of Mus musculus with 2 samples.

Results

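MHC class II molecules carry peptides from ingested proteins to the cell surface, where CD4+ T cells read them. The 10 genes described here cover the successive steps of that route and were listed by name: the class II chains H2-Aa, H2-Ab1 and H2-Eb1, the invariant chain Cd74, the peptide exchange factor H2-DMa and H2-DMb1, the lysosomal protease Ctss, the transactivator Ciita and the costimulatory ligands Cd80 and Cd86. They are 10 of the 37003 gene names on the array, and 24 of its 56597 probes. All 10 genes had at least 1 probe well above background and were kept, as were 21345 genes in all, and 18 of their 24 probes passed this filter.

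The samples were epithelial cells of the submandibular gland, selected from female C57BL/6 mice (C57BL/6N in the methods) with magnetic beads against EpCAM, a surface protein of epithelial cells. The young sample came from an age of 9 weeks and the aged sample from 24 months, neither group had a treatment in the labels, and each age had 1 array. The differences therefore lack a replicate check and were not tested between the ages, and the age, the individual mouse and the different sources that the methods give for young and aged mice cannot be told apart. Bead selection leaves room for other cell types, and in such bulk RNA fewer cells of a type and less RNA per cell cannot be told apart. Labelled RNA was hybridized to Agilent arrays whose probes are oligonucleotides of 60 bases, and each array held 59305 spots other than controls.

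Of these spots, 32875 (55.4%) of the young and 30111 (50.8%) of the aged array were marked well above background by the scanner software. Signals are fluorescence intensities, given as such or as log2 relative to the array's 75th percentile, which was 256 for the young and 198 for the aged sample. All differences are aged minus young on this log2 scale, and a 2-fold difference was the threshold. A pair of signals is always given with the young array first. Where several probes matched a gene, the brightest represented it. The others are described for each gene listed by name above, and only for some of the further genes. The error of a difference, where given, comes from the software's error model and covers the measurement of 1 spot per array, not the spread between mice.

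Class II genes are transcribed strongly in dendritic cells, macrophages and B cells, and interferon gamma can switch them on in epithelial cells. Ciita is the master regulator of the set: its protein does not bind DNA itself and is recruited by the RFX complex, CREB and NF-Y, which sit on the X and Y boxes upstream of class II genes. The class II chains are assembled with the invariant chain in the endoplasmic reticulum, cathepsin S trims the invariant chain in the lysosome, and H2-DM exchanges the remaining fragment for peptide. Cd80 and Cd86 encode the ligands of CD28, which give the T cell its second signal.

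The X and Y boxes are shown because they are the sequence the class II genes have in common. RefSeq promoters (GRCm38.p6, from 250 bases before to 50 after the start site) were given for 6 of the 10 genes, all but H2-Ab1, Cd74, Ciita and Cd86. Both strands were searched for the core of the Y box, ATTGG, and for a pattern of the X1 box with some free positions, seen in capitals below, and the matched letters of the 2 boxes do not overlap. The X1 pattern were in 1016 of 32851 promoters (3.09%), the Y letters in 12289 (37.4%), and an X1 box followed on the same strand by a Y core after 10 to 40 bases in 32 (0.0974%). Among the members, H2-Eb1 and H2-DMb1 held the ordered pair, and so did H2-Ob and H2-Eb2 among the other class II genes. H2-Aa and one of the H2-DMa promoters held the Y letters without the X1 pattern, and the Ctss and Cd80 windows held neither. The stretches below are written 5′ to 3′ on the strand of the gene, with the matched letters in capitals, and a match is a description of the letters and not of a bound site.
H2-Eb1, chr17:34305751-34305832, plus strand: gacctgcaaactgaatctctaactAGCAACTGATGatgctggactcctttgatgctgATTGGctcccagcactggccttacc
H2-DMb1, chr17:34153072-34153154, plus strand: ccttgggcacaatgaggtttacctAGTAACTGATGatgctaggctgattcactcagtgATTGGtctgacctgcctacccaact
H2-Aa, chr17:34287847-34287935, minus strand: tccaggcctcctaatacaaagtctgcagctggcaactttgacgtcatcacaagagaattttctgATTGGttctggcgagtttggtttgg
H2-Ob, chr17:34238793-34238872, plus strand: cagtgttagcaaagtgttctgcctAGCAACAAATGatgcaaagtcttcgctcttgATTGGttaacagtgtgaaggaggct
The spacing between the boxes was 22 bases in H2-Eb1, 23 in H2-DMb1 and 20 in H2-Ob, and the Y core ended 54, 56 and 52 bases before the annotated start. In H2-Aa it ended 43 bases before the start.

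By the brightest probe, the aged array was at least 2-fold lower for 9 of the 10 genes and at least 2-fold higher for none. Over all 18745 genes measured well above background on both arrays, 3.05% were at least 2-fold lower and 1.52% at least 2-fold higher. At 3-fold, 8 of the 10 genes were lower, beside 1.17% of all genes. The median difference of the 10 genes was -1.92, whereas that of all genes was 0.09, with quartiles of -0.17 and 0.34. Of the 24 probes, 16 were measured on both arrays and 14 of them were at least 2-fold lower, beside 2.80% of all probes. Ctss (-1.14) was the member nearest the threshold from within, and Cd80 (0.27) the one outside it.

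The class II chains form the peptide-binding heterodimers, H2-Aa and H2-Ab1 those of I-A and H2-Eb1 the beta chain of I-E. The H2-Ab1 probe that represents the gene had signals of 34004 and 6085, or 7.05 and 4.94 relative to the 75th percentile. The difference was -2.11 with an error of 0.20, which is 4.32-fold lower with age. Of its other probes, one had 31777 and 5925 (-2.05), one 3431 and 639 (-2.05) and one 13641 and 2633 (4-fold lower). The 4 probes were thus lower by nearly the same factor. The first of them and the one at 31777 overlap (34406296 to 34406355 and 34406305 to 34406363 on chromosome 17 of NCBI37, mm9, the build of the files) and are not separate measurements of the transcript. H2-Aa had signals of 2403 and 448, a difference of -2.05 (4.15-fold lower). H2-Eb1 had 30441 and 6318, a difference of -1.90 (3.72-fold lower). The 3 chains thus lay between -2.11 and -1.90.

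The probe of H2-Ab1 farthest from the other 3 on the chromosome (chr17:34404357-34404416), shown because it overlaps none of them, and the probe of H2-DMa, whose 60 bases are spread over 564 bases of the genome (chr17:34274300-34274863) and so lie in more than 1 exon, have these sequences.
H2-Ab1 probe: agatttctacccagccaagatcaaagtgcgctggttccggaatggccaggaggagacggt
H2-DMa probe: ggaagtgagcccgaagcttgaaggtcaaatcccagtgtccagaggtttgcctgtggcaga
Exon, intron and UTR annotation of that build was not used here.

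**Figure D1:**
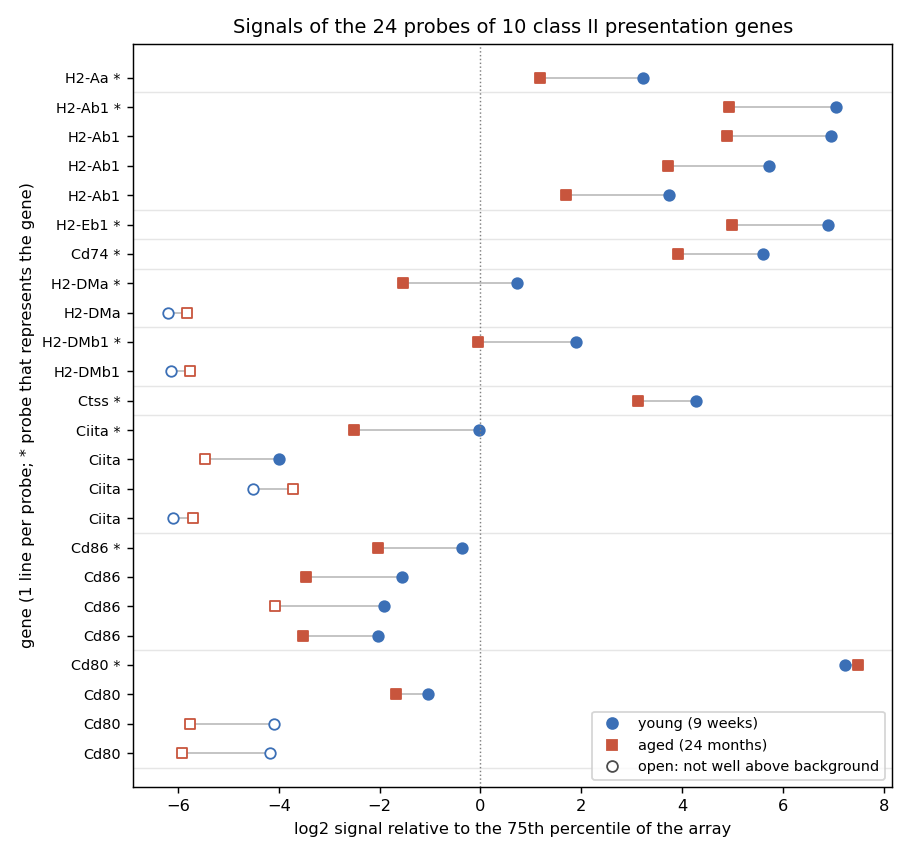
Log2 signal of each of the 24 probes relative to the 75th percentile, with circles for the young and squares for the aged array and open symbols for spots not well above background. In the class II chains, Cd74, H2-DM, Ctss and Cd86 every probe with filled symbols on both arrays lies lower on the aged array, whereas the brightest Cd80 probe lies at 7.23 and 7.49.

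Cd74, whose product blocks the peptide groove and steers class II chains to the endosome, had signals of 12404 and 3007, a difference of -1.67 (3.19-fold lower, error 0.20) by its only probe. The subunits of the peptide exchange factor were lower as well. H2-DMa had 426 and 68.2, a difference of -2.27 (4.83-fold lower, error 0.22). H2-DMb1 had 948 and 191, a difference of -1.94 (3.83-fold lower, error 0.21). Each of these genes has a further probe, made for another transcript, at substitute values on both arrays, where the software could not measure a signal. H2-DMb1 and H2-DMb2 are close copies, and binding of one transcript to the probe of the other was not tested. The H2-DMb2 probe was well above background on neither array.

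For Ciita, the brightest probe (chr16:10526458-10526517) had signals of 253 and 34.7, or -0.02 and -2.51 relative to the 75th percentile. The difference was -2.49 with an error of 0.25, which is 5.63-fold lower. A second probe lay close to background, with signals of 16.0 and 4.48, the latter not well above background, and no fold is given for it. The last 2 Ciita probes were made from cDNA clones and were well above background on neither array. The Ciita value therefore rests on 1 probe of moderate signal, and it moved to -1.43 with another background correction, still over 2-fold.

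Ctss, the protease that removes the invariant chain in most antigen-presenting cells, was the closest to 2-fold of the 9 genes as processed here. Its only probe had signals of 4941 and 1729, a difference of -1.14 (2.21-fold lower, error 0.20). The difference was -0.97, under 2-fold, with arrays centred on their medians.

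The costimulatory ligands gave unlike values. The brightest Cd86 probe had signals of 199 and 48.4, a difference of -1.67 (3.18-fold lower, error 0.23). Of the other Cd86 probes, one had 87.8 and 17.9 (-1.93), one 62.3 and 17.3 (-1.48), and one, with 68.2 and 11.7, was measured on the young array only and was at least 3.70-fold lower. The 4 probes of Cd86 were thus in one direction, and all were dim, with the highest at -0.36 on the young array.

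The 4 probes of Cd80 gave different pictures. The brightest (chr16:38479343-38479402) had 38366 and 35671, a difference of 0.27 with an error of 0.20. The next probe had 124 and 62.0, a difference of -0.63 (1.55-fold lower, error 0.22). The remaining Cd80 probes were well above background on neither array, with 15.1 and 14.2 in the young sample and substitute values in the aged sample. A single very bright Cd80 probe thus stood beside 1 dim probe and 2 not measured, and what the bright probe binds was not tested. It is shown with one of the probes that were well above background on neither array (chr16:38474174-38474233), whose accession names the same transcript.
Cd80 probe, bright: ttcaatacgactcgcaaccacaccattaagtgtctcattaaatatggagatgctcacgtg
Cd80 probe, not well above background: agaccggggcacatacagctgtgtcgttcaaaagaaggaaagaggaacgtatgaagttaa

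The order of the differences, from the largest decrease, was Ciita, H2-DMa, H2-Ab1, H2-Aa, H2-DMb1, H2-Eb1, Cd74, Cd86, Ctss and Cd80. The order was not the same under every setting: H2-Ab1 came before Ciita with quantile normalization (-2.57 and -2.43), with loess (-2.58 and -2.51) and with the normexp background correction (-2.19 and -1.43). Neighbours in the order as reported, from Ciita to Ctss, differed by 0.53 or less, and none of these gaps was over 2 times its error from the software's model. The step from Ctss to Cd80, of 1.41 with an error of 0.28, was larger. The 7 class II chain, Cd74, H2-DM and Ciita genes lay between -2.49 and -1.67 with a standard deviation of 0.27 over genes. The signals of the brightest probe of each on the young array ran from -0.02 to 7.05 relative to the 75th percentile. Among the 10052 genes with a mean signal at or above the 75th percentile, 1.31% were at least 2-fold lower, 0.965% at least 2-fold higher, and 0.617% lower by 3-fold or more. The plot of all genes shows the same: bright genes with a difference under -1 are few, and H2-Ab1, H2-Eb1, Cd74 and Ctss are among them.

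**Figure D2:**
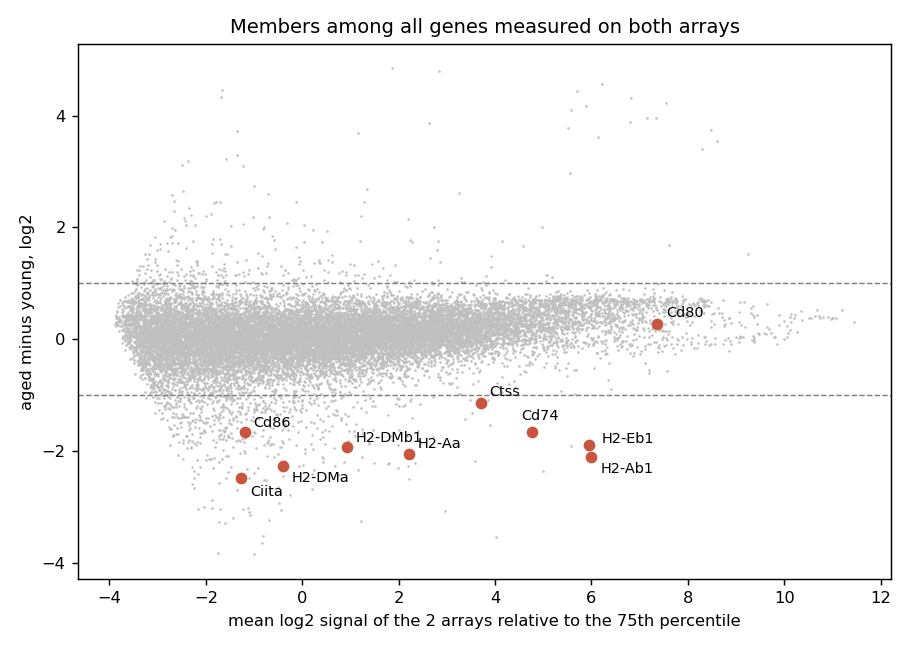
Difference (aged minus young, log2) against the mean log2 signal of the arrays relative to the 75th percentile for the 18745 genes measured on both arrays (grey) and the 10 members (red, named), with dashed lines at 2-fold. Ciita (-2.49) and H2-DMa (-2.27) lie among dim genes that spread widely, whereas H2-Ab1 (-2.11) and H2-Eb1 (-1.90) lie in a bright range where few genes pass the lower line.

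The H2 members are neighbours on chromosome 17, and their probes span 188 kb from 34264778 to 34453134 in NCBI37 (mm9). Between the outermost of them the files place 9 other genes or transcripts, of which 6 were kept and 5 were measured on both arrays. None of the 5 was at least 2-fold different, and their median difference was -0.25, between -0.60 and 0.06. They include the peptide transporter genes of the class I pathway, Tap1 (766 and 498, -0.25) and Tap2 (2462 and 1840, -0.05), and the immunoproteasome subunits Psmb8 (433 and 349, 0.06) and Psmb9 (419 and 226, -0.52). Genes of the class I pathway thus lay between class II genes that were 3.72-fold to 4.83-fold lower, with differences under 2-fold. H2-Ob, whose product with that of H2-Oa restrains H2-DM, had 33.1 and 16.9, a difference of -0.60 by a dim probe. A transcript listed as ENSMUST00000121995 was measured on the aged array only and was higher, with a limit of 1.49 on the log2 scale.

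**Figure D3:**
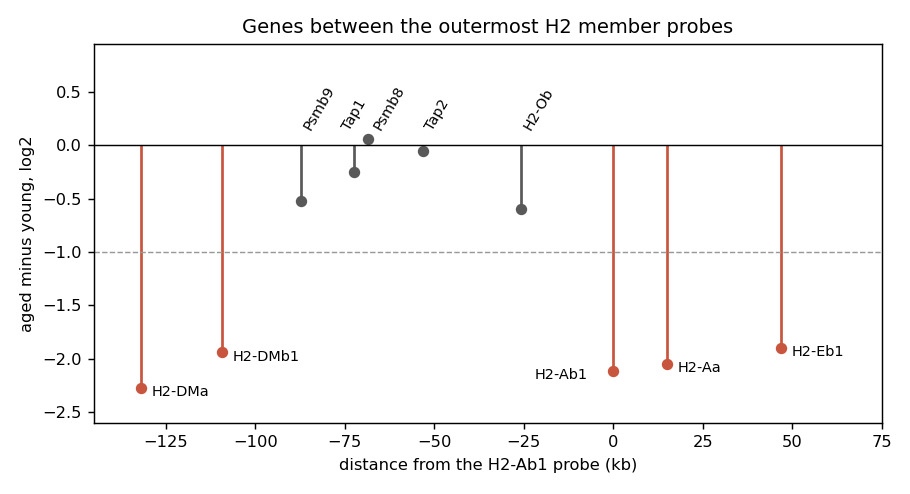
Difference (aged minus young, log2) of the genes measured on both arrays against the distance of their probe from the H2-Ab1 probe in kb, with class II presentation genes in red, other genes in grey and a dashed line at 2-fold lower. H2-DMa, H2-DMb1, H2-Ab1, H2-Aa and H2-Eb1 lie between -2.27 and -1.90, and the 5 genes between them lie between -0.60 and 0.06.

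Of 38 other genes of the pathway, 31 were kept and 27 measured on both arrays. Of these, 2 passed 2-fold downward and none upward, and the median difference was -0.19. Those lower were Cd83, which protects class II and Cd86 from turnover (1750 and 388, -1.80, 3.49-fold lower), and Cst3, the secreted cathepsin inhibitor cystatin C (5375 and 1958, -1.09, 2.12-fold lower). Cst3 was under 2-fold (-0.91) with arrays centred on their medians. The count of 2 lower genes was 1 with that centring and 7 with the spike-in controls. With limits counted, no further gene of these lists reached 2-fold, beside 5.25% of all 20934 genes with a difference or a limit lower and 2.57% higher. Of those with limits, H2-Eb2 (1.98-fold), Pdcd1lg2 (1.96-fold) and H2-Oa (1.84-fold), measured on the young array only, were lower by at least the factor given.

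The factors that bind class II promoters differed little. Of 7, 6 were measured on both arrays, with differences between -0.38 for Nfyb and 0.20 for Rfxank and a median of -0.02, and the probes of Rfx5 were well above background on neither array. Of the 7 genes of interferon gamma signalling, none was 2-fold different. Their median was -0.43, with Ifngr2, a chain of the receptor, at -0.75, Ifngr1 at -0.54, the kinase gene Jak2 at -0.51, the transcription factor gene Irf1 at -0.43, and the inhibitor Socs1 at 0.40. In lysosomal processing, Cst3 apart, the genes were under 2-fold, from -0.82 for the asparaginyl protease Lgmn to 0.59 for the thiol reductase Ifi30. Between them were Ctsl at 0.22, Ctsb at -0.04 and Ctsd at 0.43. A second, dimmer Ctsl probe (103 and 45.6) went the other way, at -0.80. Ctsl encodes the related protease that trims the invariant chain in thymic epithelium.

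Among the remaining class II genes, H2-DMb2 and H2-Ea-ps were well above background on neither array. C57BL/6 mice do not make the I-E alpha chain, so H2-Eb1 was measured here as a transcript without its partner. Marchf1 and Marchf8, ubiquitin ligases that remove class II and Cd86 from the surface, differed by -0.02 and -0.11. Of 9 other costimulatory and checkpoint ligands, Cd274 (-0.60), Cd276 (-0.60) and Tnfsf9 (-0.52) were measured on both arrays. Cd40, measured on the young array only, is given no fold, and Icosl, Tnfsf4, Cd70 and Vtcn1 were well above background on neither array.

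Many markers of macrophages and dendritic cells were lower on the aged array beside the class II genes. Of 11 macrophage markers, all measured on both arrays, 8 were at least 2-fold lower, with a median of -1.23 and a range from -1.91 to -0.05. The defining markers were Adgre1 (674 and 204, -1.36), C1qa (973 and 362, -1.06) and Csf1r (7302 and 3659, -0.62), and the largest difference was that of the lysozyme gene Lyz2 (23810 and 4884, -1.91). Mrc1, a mannose receptor, was at -1.88. C1qa was under 2-fold (-0.88) with arrays centred on their medians. Of 9 dendritic cell markers, 4 were measured on both arrays. At least 2-fold lower were 3, namely the migration receptor Ccr7 (749 and 89.9, -2.69), Itgax (366 and 91.1, -1.64, with a dim probe at 25.1 and 26.0) and Flt3 (60.9 and 17.3, -1.45). With the mean of all kept probes Itgax (-0.61) and Flt3 (-0.85) were under 2-fold, as was Flt3 with the normexp background correction (-0.39). Cd209a was lower by its limit of at least 10.4-fold, the third defining marker Zbtb46 was measured on the young array only (at least 1.16-fold lower), Clec9a is given no fold, and Xcr1 and the Langerhans cell marker Cd207 were well above background on neither array. The brightest gene of this list, Siglech, had 63815 and 43298 by a single probe (-0.19), while its other 2 probes were well above background on neither array.

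A general leukocyte list held 9 markers, of which some, such as Tyrobp and Fcer1g, are not carried by every leukocyte type. Of the 8 measured on both arrays, 6 were at least 2-fold lower, 1 more was lower by its limit, and the median was -1.33. Ptprc, which encodes CD45, differed by -0.21 at its brightest probe (1468 and 979) and by -1.53 at the next (368 and 98.7), and of its other probes 1 was measured on both arrays (112 and 81.0), 2 on the young array only and 2 on neither. The most changed was Cd52 (2106 and 458, -1.83). Summed over the list, the signal in units of the 75th percentile was 33.8 and 15.6 for these markers and 200 and 104 for macrophage markers. Lyz2 made up 46.5% of the macrophage sum on the young array. For dendritic cell markers the sums were 255 and 220, with 97.8% of the young value from Siglech. For the 9 members without Cd80 the sums were 336 and 90.6. Whether the aged sample held fewer macrophages or dendritic cells, and what part this would have in the class II values, was not tested.

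B cells, which also carry class II, showed no common direction. Of their defining markers, Cd79a was well above background on neither array, and Ms4a1 was measured on the young array only (at least 1.94-fold lower). The most changed, Cd79b, had 146 and 25.5, a difference of -2.14, which was under 2-fold (-0.87) with the normexp background correction. The median of the 5 B cell markers measured on both arrays was -0.22. Cd22 was the brightest by a single probe (327 and 216), which gave 37.8% of the list's young sum. Its other probes were well above background on neither array. The sums were 3.37 and 2.78. Of 6 T cell markers measured on both arrays, 1 was at least 2-fold lower, Cd2 at -1.28, and the median was -0.01. Cd3d and Cd3e differed by 0.62 and 0.56, and Cd3g, measured on the young array only, was at least 2.06-fold lower. The brightest T cell marker was Cd4 by a single probe (1597 and 1278), while its other probes were well above background on neither array. The sums were 11.1 and 12.8, with 56.0% of the young value from Cd4.

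Of the epithelial markers, all but Krt19 were well above background in both samples. Of 11, 10 were measured on both arrays, none was 2-fold different, and the median was 0.07, from -0.55 for Cldn4 to 0.54 for Krt7. The defining markers Epcam (1778 and 1573), Cdh1 (2423 and 1953) and Krt8 (36987 and 29215) differed by 0.20, 0.06 and 0.03, and each of these signs changed under other scalings. Krt19 was measured on the young array only, at least 1.85-fold lower. The list's sums were 542 and 602, with Krt18 the brightest.

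**Figure D4:**
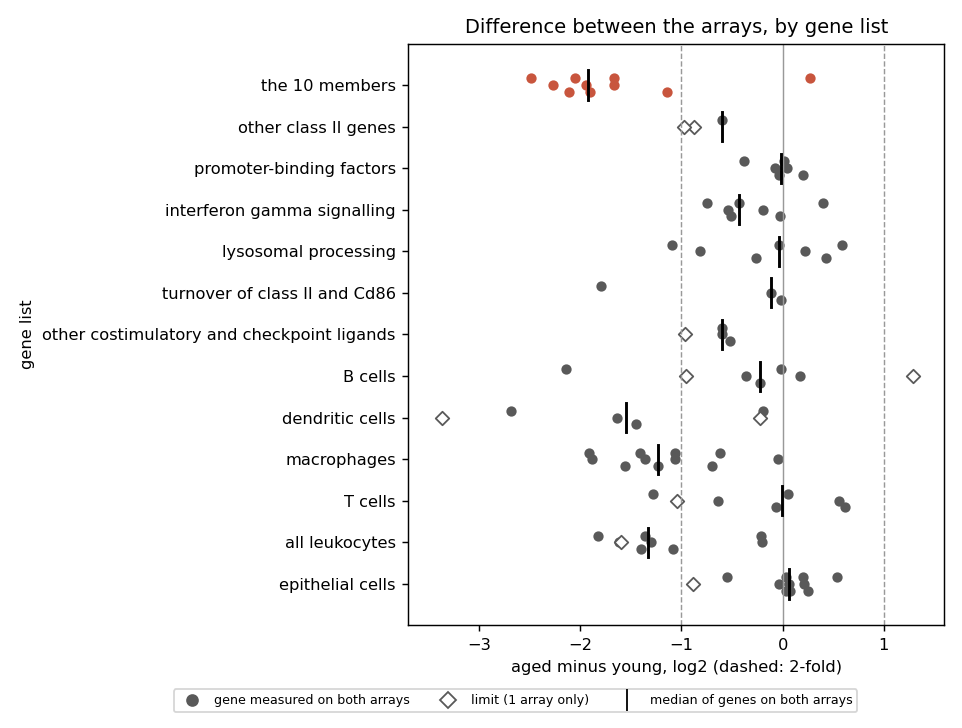
Difference (aged minus young, log2) of each gene measured on both arrays (points, members in red) by gene list, with open diamonds for lower limits of genes measured on 1 array, a bar at the median and dashed lines at 2-fold. The medians are -1.92 for the members, -1.23 for macrophages, -1.54 for dendritic cells, -1.33 for the list labelled all leukocytes and 0.07 for epithelial cells.

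Over the 11 other ways of processing that were tried, H2-Ab1 lay between -2.58 and -1.94, H2-Aa between -2.31 and -1.88, H2-Eb1 between -2.38 and -1.72, Cd74 between -2.06 and -1.50, H2-DMa between -2.53 and -1.61, H2-DMb1 between -2.20 and -1.69 and Ciita between -2.75 and -1.43. These 7 genes were at least 2-fold lower under every one of the 11. Cd86 was under 2-fold with the normexp background correction (-0.94) and Ctss with centring on the median (-0.97). Cd80 lay between -0.32 and 0.44 and never reached 2-fold, and its sign turned with quantile normalization (-0.32), with loess (-0.30) and with the mean of its probes (-0.18).

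**Figure D5:**
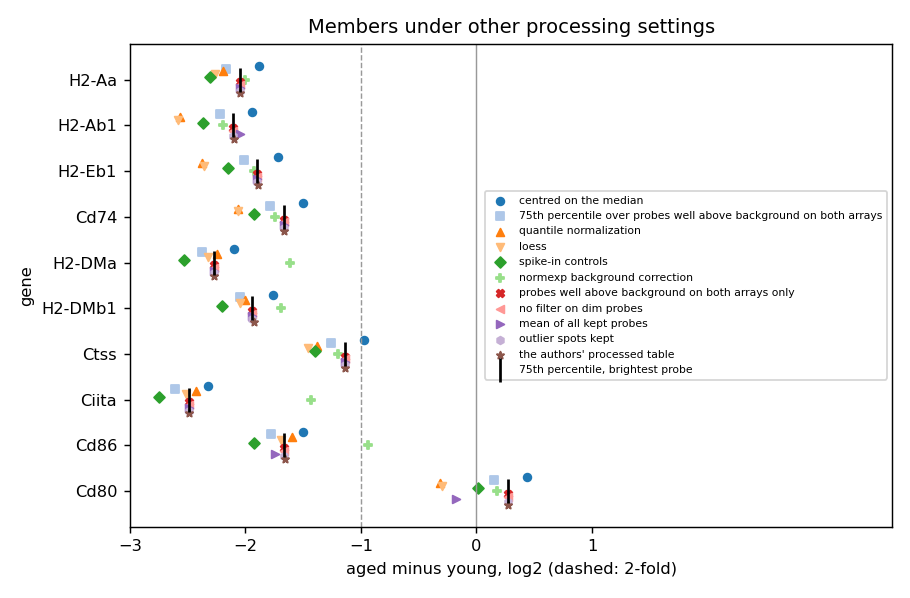
Difference (aged minus young, log2) of each member under the 11 other settings (symbols) and as reported (black bar), with a dashed line at 2-fold lower. The 7 class II chain, Cd74, H2-DM and Ciita genes stay left of the line, Ctss and Cd86 each cross it once, and Cd80 lies between -0.32 and 0.44.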

How the data were processed

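Arrays of 1 young and 1 aged sample were analysed. The scanner files were deposited by the authors, made with Agilent Feature Extraction 12.0.3.1 according to the submitters' processing notes. The intensity of a spot in them had been corrected by the scanner software for a background fitted over the array and for multiplicative trends, or replaced by a substitute value where no signal was measured, and arrays were not scaled to each other. The deposited table of processed values equals these intensities over a constant (229 young, 176 aged).

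The processed signal was divided by the array's 75th percentile, taken without control spots, and put on the log2 scale. Outlier spots (90 young, 93 aged) were left out, no spot was saturated, and repeated spots were averaged. A probe was kept if either array had it well above background. Where only 1 did, a lower limit was computed, with the dim side set to the lowest well-above-background signal of its array (14.1 young, 14.3 aged) or to its own value if higher, and no fold is given where the limit is under 1. Over the 293 repeated probes measured on both arrays, the median standard deviation of the difference was 0.033. Gene names came from RefSeq accessions (33767 of 56605 probes matched, GRCm38.p6, names only) or from the files. The number of arrays limits the precision.

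The members and gene lists were chosen with earlier results of these data known. Named were all members with every probe, pathway genes past 2-fold or not detected, and the defining, brightest and most changed markers, with further members of each list added for their role. Single values of some listed genes are not reported here. Steps were tested on simulated data. R 4.3.3 with limma 3.58.1 (quantile, loess with span 0.7 and 3 iterations, normexp with offset 50), Python 3.11.15, numpy 2.4.6, pandas 2.3.3 and matplotlib 3.10.9 were used.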

Additional observations from a re-analysis of the deposited data

How the results depend on the processing

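No paired analysis was possible because each age had 1 array. Over the 11 alternatives, the count of members at least 2-fold lower was 9, or 8 under normexp and under centring on the median. Of the other pathway genes, 2 were at least 2-fold lower as reported, 1 with centring on the median, 4 with the 75th percentile of probes measured on both arrays, 6 with loess, and 7 both with the spike-in controls and with no filter on dim probes, where values at background are read as they stand. Of the leukocyte markers, 22 were lower and 1 higher with limits counted, against 13 lower and 0 higher with normexp, and 0 higher when both arrays had to measure a gene. In the class II region the other genes had 0 lower and 1 higher, against 2 lower with no filter, and 0 higher with normexp or when both arrays had to measure a gene. Of single genes, Cst3 (-0.91) and C1qa (-0.88) were under 2-fold with centring on the median, and Cd79b (-0.87) and Flt3 (-0.39) with normexp. With the mean of all kept probes, Itgax (-0.61) and Flt3 (-0.85) were under 2-fold. The cause was not tested. The median of all genes moved by 0.17 with centring on the median, by -0.26 with the spike-in controls, by -0.14 with loess and by -0.11 with the 75th percentile over probes measured on both arrays. With centring on the median 417 genes were lower and 464 higher, with normexp 209 and 107, and with the spike-in controls 934 and 150, against 571 and 284 as reported. Signal over background limits Ciita, Cd86 and the dim markers.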
